A study of Mus musculus with 7 samples.

Results

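A set of 37 genes of mitosis was followed through mouse T cells: the cyclins and kinase that start division, the proteins that attach and move chromosomes, and those that split the cell. The genes were chosen by symbol as a module, with earlier results of these data known, and each symbol was matched to its row in the count matrices. All 37 were found among the 27514 genes that the 7 libraries share. The libraries came from single T cells in droplets (10x Chromium, 3′ ends of RNA), taken from the spleen of 8-week-old male C57BL/6 mice, with no transgene or mutation named. DNT, double negative T cells, carry an alpha-beta T cell receptor but neither CD4 nor CD8, and the sort removed NK1.1+ cells, gamma-delta T cells and cells binding CD1d loaded with aGal or LPC. Naive DNT (2 libraries) were taken after that sort, and activated DNT (2 libraries) were naive DNT kept for 3 days in vitro with antibody to CD3/CD28 and 20 ng/ml IL-2. The CD4, CD8 and TCRab groups (1 library each) were unstimulated alpha-beta T cells that were CD4+, CD8+ or taken without regard to either. No culture without stimulation was among the groups, so stimulation, IL-2 and time in culture cannot be told apart.

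Cells enter mitosis when CDK1 bound to cyclins A and B becomes active. Kinetochores then tie each chromosome to spindle microtubules, a checkpoint holds the cell until all are attached, and the anaphase-promoting complex (APC/C) ends the block by marking cyclin B and securin for degradation. Resting T cells in the spleen seldom divide, and a T cell whose receptor and CD28 are engaged enters repeated rounds of division. Most mitosis genes are transcribed late in the cell cycle, through promoters where the MuvB complex with B-MYB and FOXM1 meets the cell cycle genes homology region (CHR) and where NF-Y meets CCAAT boxes.

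The promoters are shown because the genes moved together in the libraries. The sequences, from RefSeq on GRCm38.p6, run from 250 bases before to 50 bases after the annotated start of transcription, 5′ to 3′ on the gene's strand. Capitals mark the CHR letters TTTGAA or TTTAAA on either strand, TTCAAA being the reverse complement of the first, and the CCAAT box (CCAAT, or ATTGG on the other strand). Where the letters of a CHR and a box overlap, both are in capitals. The first 6 are the members that hold such a CHR and had the highest mean CPM in activated DNT.
Top2a, chr11:99024140-99024439 (- strand): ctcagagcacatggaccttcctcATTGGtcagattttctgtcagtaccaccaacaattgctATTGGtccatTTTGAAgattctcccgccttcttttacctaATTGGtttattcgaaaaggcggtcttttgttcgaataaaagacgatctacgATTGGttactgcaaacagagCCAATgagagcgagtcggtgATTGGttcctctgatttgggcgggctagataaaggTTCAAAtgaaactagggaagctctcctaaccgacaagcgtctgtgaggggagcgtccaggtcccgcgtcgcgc
Ube2c, chr2:164769679-164769978 (+ strand): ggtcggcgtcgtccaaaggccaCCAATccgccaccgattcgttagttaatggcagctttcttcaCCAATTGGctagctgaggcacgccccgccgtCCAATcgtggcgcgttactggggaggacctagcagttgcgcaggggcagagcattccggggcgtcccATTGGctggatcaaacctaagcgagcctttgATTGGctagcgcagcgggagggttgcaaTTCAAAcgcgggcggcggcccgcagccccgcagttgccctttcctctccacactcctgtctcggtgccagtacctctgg
Birc5, chr11:117848987-117849286 (+ strand): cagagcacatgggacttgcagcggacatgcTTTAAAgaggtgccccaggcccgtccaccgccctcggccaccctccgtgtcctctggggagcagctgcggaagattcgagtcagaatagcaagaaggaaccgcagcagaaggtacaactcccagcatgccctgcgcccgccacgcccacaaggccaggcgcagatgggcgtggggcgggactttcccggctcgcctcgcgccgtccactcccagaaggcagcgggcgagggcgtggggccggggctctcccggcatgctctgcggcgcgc
Cenpa, chr5:30666636-30666935 (+ strand): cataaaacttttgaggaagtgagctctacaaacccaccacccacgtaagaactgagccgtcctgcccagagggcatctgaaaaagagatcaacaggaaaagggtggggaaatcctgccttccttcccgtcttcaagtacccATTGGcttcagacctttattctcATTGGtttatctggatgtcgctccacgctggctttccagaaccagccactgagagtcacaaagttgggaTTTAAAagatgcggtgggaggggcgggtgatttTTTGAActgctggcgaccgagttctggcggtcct
Cdca8, chr4:124936868-124937167 (- strand): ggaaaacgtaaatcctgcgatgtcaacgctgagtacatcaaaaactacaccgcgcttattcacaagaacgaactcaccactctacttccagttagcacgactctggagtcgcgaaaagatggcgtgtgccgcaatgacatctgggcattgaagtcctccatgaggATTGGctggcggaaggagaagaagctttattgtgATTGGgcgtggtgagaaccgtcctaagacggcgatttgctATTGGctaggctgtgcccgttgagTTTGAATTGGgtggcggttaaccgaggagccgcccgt
Mki67, chr7:135716330-135716629 (- strand): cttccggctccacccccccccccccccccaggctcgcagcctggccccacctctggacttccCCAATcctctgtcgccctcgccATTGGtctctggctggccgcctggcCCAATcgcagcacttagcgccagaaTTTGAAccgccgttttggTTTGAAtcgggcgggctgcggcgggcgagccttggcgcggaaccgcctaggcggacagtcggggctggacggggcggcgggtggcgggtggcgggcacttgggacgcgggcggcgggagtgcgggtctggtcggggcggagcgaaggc

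A promoter was available for 32 of the 37 genes and not for Ccna2, Aurkb, Kif20a, Tpx2 and Dlgap5. The CHR letters were in 29 of the 32 (90.6%) against 30.6% of 27025 genes with a promoter. Within the stretch from 50 bases before to 45 after the start they were in 26 of 32 (81.3%), against 9.54% of all genes. A CCAAT box was in 26 of 32 (81.3%) against 41.1%, and both motifs were in 25 (78.1%) against 12.2%. In Top2a the CHR letters nearest the start lay 23 bases before it, in Ube2c 29 before, in Cdca8 at base 14 after it, and in Cenpa 17 before and again at base 17 after. Birc5 held TTTAAA at 220 bases before the start and no CCAAT box in this window, and the nearest match in Mki67 lay 98 bases before. A match is a string of letters and does not show that a factor was bound.

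The filter on cells kept 28101 cells. They numbered 4049 and 6728 in naive DNT, 1791 and 1549 in activated DNT, 5035 in CD4, 4655 in CD8 and 4294 in TCRab. Library 1 of each DNT group and the 3 reference libraries were made with kit v2 and library 2 of each DNT group with kit v3, and the median cell held 4119 and 7556 UMIs in naive DNT, 15795 and 9386 in activated DNT and 3987 to 4899 in the references. T cell markers summed to 2013 to 4262 CPM (counts per 1000000 UMIs), and all 6 were detected in each library. Red cell markers (6 genes) summed to 3698 and 819 CPM in naive DNT, 2153 to 2835 in the references, and 0 and 0.436 in activated DNT, where all 6 were at 0 in library 1 and 4 were at 0 in library 2. Myeloid markers (8 genes) summed to 1748 and 120 CPM in naive DNT, 3.50 to 403 in the references and 0.407 and 65.3 in activated DNT, with 5 and 3 of them at 0 in activated DNT. B cell markers (6 genes) summed to 26.8 and 106 CPM in naive, 9.92 and 13.5 in activated and 4.85 to 21.8 in the references, with 3 genes at 0 in activated library 1 and 3 in CD8. NK cell markers (5 genes) summed to 139.96 and 138.7 CPM in naive, 26.1 and 98.8 in activated and 2.45 to 72.9 in the references, with 1 gene at 0 in activated library 1 and 1 in TCRab. The part of these other cell types in the comparisons was not tested. Libraries of the same kit shared 4 to 36 cell barcodes per pair, at most 0.830% of the smaller library, and libraries of different kits at most 1.

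Nearly all mitosis genes were higher after naive DNT were stimulated. Their summed level was 112 and 233 CPM in naive DNT and 897 and 1519 CPM in activated DNT, so that both activated libraries lay above both naive ones. In the test, 32 of the 37 genes rose and 0 fell, while 5.32% of the 12325 genes tested rose and 10.4% changed in either direction (edgeR quasi-likelihood test, 2 against 2 libraries, Benjamini-Hochberg adjusted p under 0.05). The median log2 fold change was 3.70 over the 37 genes and −0.05 over all genes tested. Both activated libraries were above both naive ones for 35 of the 37 genes and for 28.1% of all genes tested. The genes that did not pass were Cenpa, Kif23, Racgap1, Ndc80 and Ect2. With the replicate number, which is also the kit, as a block, Ndc80 and Ect2 passed too and 34 genes rose, against 19.9% of all genes. Activated cells carried more UMIs than naive ones. When each cell was thinned to 1500 UMIs, 33 of the 37 could be tested and 16 rose, all of them among the 32, while 1.85% of the 9858 genes tested rose. The median log2 fold change of the members was then 3.21. Without naive DNT library 1, 24 of the 37 rose against 2.1% of all genes, with a median of 3.24.

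Levels below are library sums in CPM scaled by TMM, a correction for the composition of a library, with naive libraries 1 and 2 first and activated libraries 1 and 2 next. Errors of log2 fold changes are approximate standard errors, the size of the change divided by the square root of edgeR's F statistic. Adjusted p-values are from the edgeR quasi-likelihood test over all genes. The p-values measure the spread between these libraries, and the series' design text calls the 2 libraries of each DNT group biological replicates.

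**Figure D1:**
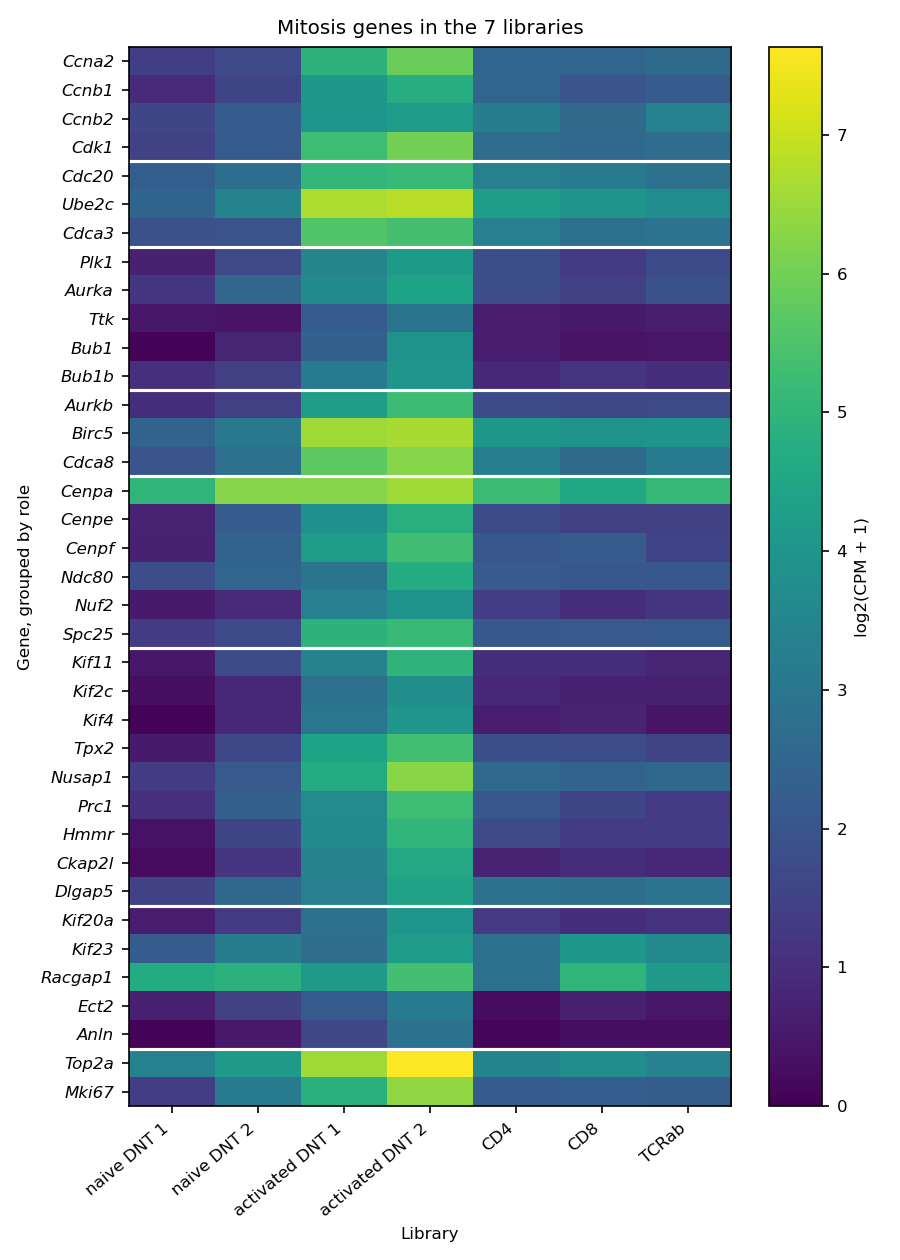
Heat map of the 37 mitosis genes (rows, grouped by role) in the 7 libraries (columns). Colour is log2(CPM + 1) of UMIs summed per library. The activated DNT columns are brighter than the others for most genes, while Cenpa and Racgap1 are also bright in naive DNT.

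The cyclins and their kinase all rose. Ccna2, cyclin A2, which acts from replication into early mitosis, stood at 2.15 and 1.90 CPM in naive and 33.6 and 48.2 in activated libraries. Its groups were far apart and its naive libraries close together, for a log2 fold change of 4.34 ± 0.44 (adjusted p = 0.00642). Cdk1, the kinase that drives entry into mitosis, went from 2.30 and 2.94 to 42.7 and 52.6 CPM (4.17 ± 0.43, adjusted p = 0.00654). Cyclin B1 (Ccnb1), its main partner at entry, went from 1.11 and 1.72 to 17.96 and 21.1 CPM (3.75 ± 0.45, adjusted p = 0.00815). Cyclin B2 (Ccnb2) changed less, from 2.60 and 3.12 to 17.1 and 14.0 CPM (2.43 ± 0.41, adjusted p = 0.0159). Naive and activated libraries did not overlap for any of these 4 genes. The same order, both activated above both naive, was seen for 28.1% of all genes tested.

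The 3 genes of protein degradation rose as well. Ube2c, the ubiquitin-conjugating enzyme of the APC/C, was at 5.79 and 8.31 CPM in naive and 117 and 90.0 in activated DNT (3.87 ± 0.44, adjusted p = 0.00733). Cdc20, the activator of the APC/C and target of the spindle checkpoint, stood at 4.98 and 4.97 CPM in naive and 36.2 and 28.2 in activated DNT (2.69 ± 0.39, adjusted p = 0.0113). Cdca3, which triggers entry into mitosis by directing the degradation of Wee1, went from 3.49 and 2.44 to 52.9 and 32.8 CPM (3.87 ± 0.47, adjusted p = 0.00865). All 3 were higher in activated library 1 than in activated library 2.

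Each of the 5 mitotic kinases of checkpoint and spindle rose, where 5.32% of all genes tested did. Plk1, polo-like kinase, which promotes entry, spindle assembly and exit, had a log2 fold change of 3.13 ± 0.53 (adjusted p = 0.0169). Aurka, Aurora A of the spindle poles, went from 1.71 and 4.02 to 13.0 and 16.6 CPM (2.34 ± 0.52, adjusted p = 0.0349). The checkpoint kinases were scarce in naive DNT. Bub1, which recruits the checkpoint to kinetochores, was at 0.0743 and 0.627 CPM there, the first of them a single UMI, and at 4.65 and 11.2 CPM in activated DNT (4.26 ± 0.88, adjusted p = 0.0323). Ttk, which starts checkpoint signalling, rose by 3.68 ± 0.62 (adjusted p = 0.0161), and Bub1b, which inhibits APC/C with its partners, by 2.86 ± 0.45 (adjusted p = 0.0145).

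The chromosomal passenger complex corrects faulty attachments and then helps cytokinesis, and all 3 of its subunits in the set rose. Its kinase Aurkb, Aurora B, went from 1.26 and 1.48 to 20.8 and 29.3 CPM (4.17 ± 0.44, adjusted p = 0.00711). Birc5, survivin, stood at 5.65 and 6.38 CPM in naive and 105 and 78.6 in activated DNT (3.92 ± 0.42, adjusted p = 0.00711). Cdca8, borealin, was at 3.86 and 5.19 CPM against 58.2 and 60.4 (3.70 ± 0.42, adjusted p = 0.00733). The log2 fold changes of the 3 subunits spanned 3.70 to 4.17. Incenp, the scaffold of the complex, which is not one of the 37 and was picked after its value was seen, rose by 1.97 ± 0.49 (adjusted p = 0.0466).

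Kinetochore genes divided. Nuf2 and Spc25, subunits of the NDC80 complex that binds microtubules, rose by 3.93 ± 0.47 (adjusted p = 0.00815) and 3.94 ± 0.41 (adjusted p = 0.00654). Ndc80, which gives that complex its name, stood at 3.19 and 3.99 CPM in naive and 7.58 and 20.6 in activated DNT. Its groups did not overlap, but the activated libraries differed widely, and 1.97 ± 0.56 did not pass (adjusted p = 0.0665, or 0.00270 with the block). Cenpe, a kinetochore motor, rose by 3.13 ± 0.62 (adjusted p = 0.0263), and Cenpf, a large protein of the outer kinetochore, by 3.42 ± 0.72 (adjusted p = 0.0345). Cenpa, the histone H3 variant that marks centromeres, was at 39.4 and 64.7 CPM in naive and 85.5 and 74.9 in activated DNT. The groups did not overlap, yet they lay close, and 0.62 ± 0.41 did not pass (adjusted p = 0.371).

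All 9 spindle motors and microtubule proteins rose, where 5.32% of all genes tested did. Kif11, the motor that pushes spindle poles apart, went from 0.520 and 2.03 to 11.04 and 24.3 CPM (3.70 ± 0.74, adjusted p = 0.0288). Kif4, a motor that works on chromosome arms and the spindle midzone, had the largest estimate of the 37, from 0.0743 and 0.691 to 7.94 and 11.9 CPM (4.45 ± 0.81, adjusted p = 0.0214). The first naive value is again 1 UMI. Tpx2, which activates Aurora A at the spindle, rose by 4.39 ± 0.60 (adjusted p = 0.0107), and Ckap2l, a spindle protein, by 4.35 ± 0.73 (adjusted p = 0.0168). Nusap1, which bundles microtubules near chromosomes, went from 2.01 and 2.91 to 28.2 and 61.0 CPM (4.16 ± 0.54, adjusted p = 0.00966). Hmmr, a protein of spindle poles, rose by 4.07 ± 0.76 (adjusted p = 0.0246), Kif2c, which takes microtubules apart, by 3.95 ± 0.60 (adjusted p = 0.0127), and Prc1, which cross-links midzone microtubules, by 3.14 ± 0.62 (adjusted p = 0.0263). Dlgap5, which steadies microtubules at kinetochores, changed least of the genes that passed, from 2.38 and 4.18 to 10.2 and 16.3 CPM (1.99 ± 0.48, adjusted p = 0.0435). It lost the call when any of 3 libraries was left out, with adjusted p from 0.0534 to 0.162.

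The 5 cytokinesis genes moved least alike. Kif20a, which carries the passenger complex to the midzone, rose by 3.23 ± 0.56 (adjusted p = 0.0169), and Anln, anillin of the contractile ring, by 3.75 ± 0.83 from at most 0.386 CPM (adjusted p = 0.0345). Ect2, which switches on RhoA at the cell equator, stood at 0.743 and 1.51 CPM in naive and 3.89 and 6.25 in activated DNT, and 2.12 ± 0.58 did not pass (adjusted p = 0.0597, or 0.00230 with the block). Racgap1 and Kif23 form centralspindlin, which bundles the midzone and recruits Ect2. Racgap1 was at 31.6 and 24.7 CPM in naive and 18.8 and 31.8 in activated DNT. Its groups overlapped (−0.15 ± 0.42, adjusted p = 0.853), and the sign turned without naive library 1 (0.05) or without activated library 1 (0.21). Kif23 was at 4.75 and 6.995 against 6.43 and 13.8 CPM, again overlapping (0.78 ± 0.50, adjusted p = 0.358).

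Of the markers that close the list, Top2a, the topoisomerase that untangles sister chromosomes, was at 11.8 and 14.1 CPM in naive and 105 and 159 in activated DNT (3.35 ± 0.44, adjusted p = 0.00968). Mki67, the source of the Ki-67 proliferation antigen, was at 2.08 and 6.88 against 31.3 and 65.0 CPM (3.39 ± 0.69, adjusted p = 0.0301). Mki67 lost its call without naive library 1 (2.81 ± 0.72, adjusted p = 0.0628), as did Ccnb2, Aurka, Cenpe, Kif20a, Prc1, Anln and Dlgap5. Within each kit the ratio of unscaled CPM, activated over naive, had a 95% counting interval above 1 for 36 of 37 genes with kit v2 and for 37 of 37 with kit v3. The same held for 43.2% and 42.5% of the 12325 genes tested. The exception was Racgap1, with a ratio of 0.674 (0.594 to 0.766) in kit v2 and 1.37 (1.27 to 1.49) in kit v3. The median ratio over the 37 genes was 17.1 in kit v2 and 12.4 in kit v3. Several members overlap a gene on the other strand, among them Ccna2 (Exosc9), Ube2c (Tnnc2), Cdc20 (Elovl1), Kif4 (Pdzd11), Nusap1 (Oip5), Prc1 (Rccd1) and Kif20a (Cdc23), and how the authors' counting used strand is not given in the sources used here.

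**Figure D2:**
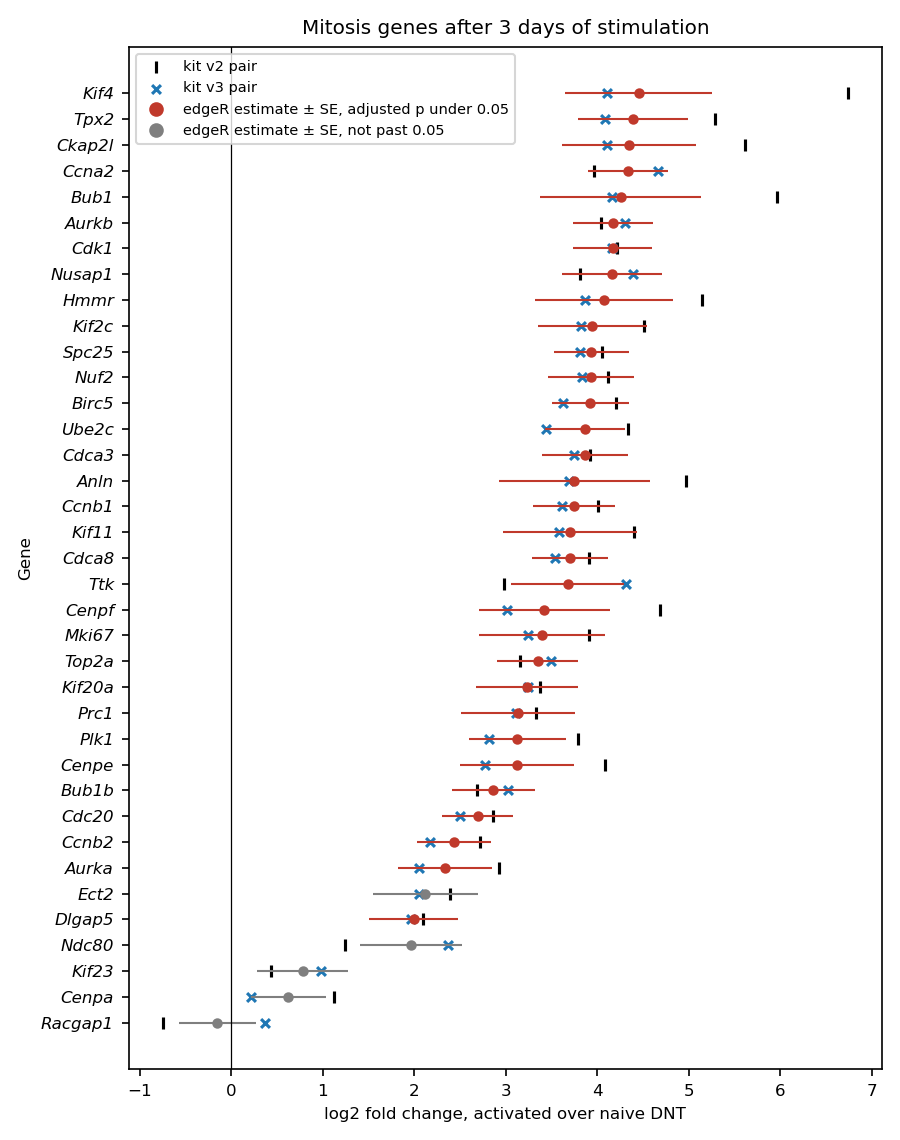
Log2 fold change of each of the 37 genes, activated over naive DNT, with dots for the edgeR estimate, bars for ± SE (2 against 2 libraries), ticks for the kit v2 pair and crosses for the kit v3 pair (TMM-scaled CPM). Red dots passed adjusted p 0.05. Racgap1, Cenpa and Kif23 lie below 1, and the kit pairs of Racgap1 fall on opposite sides of 0.

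The rest of the division machinery was read from fixed lists. Of 62 other mitosis genes tested, 43 rose and 0 fell, or 54 and 1 when the block was in the fit, against 5.32% up and 5.06% down over all genes without the block and 19.9% and 19.8% with it. The median log2 fold change was 2.86. The largest estimates were those of Psrc1, a spindle protein (7.07 ± 0.86, adjusted p = 0.00968), Pbk, a mitotic kinase (4.95 ± 0.49, adjusted p = 0.00633), and Ska1, which follows microtubule ends at kinetochores (4.69 ± 0.55, adjusted p = 0.00796). Iqgap3, also among the 4 largest, had 3 UMIs in naive and 81 in activated DNT, a ratio of CPM of 32.0 with a counting interval of 10.6 to 158. Of 40 genes of DNA replication and the G1/S step, 26 rose and 0 fell (38 rose with the block), with a median of 2.20. Mcm10 (4.95 ± 0.75, adjusted p = 0.0129) helps start the replication helicase, Tk1 (4.10 ± 0.40, adjusted p = 0.00633) and Rrm2 (4.05 ± 0.45, adjusted p = 0.00733) supply deoxynucleotides, and Ccne2 (4.04 ± 0.89, adjusted p = 0.0425) is a cyclin of replication onset. Without naive library 1 the first list had 26 genes up and the second 16, and after thinning to 1500 UMIs they had 14 (of 51 tested) and 8, against 2.1% and 1.85% of all genes.

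Among 16 regulators of mitotic entry, 7 rose and 1 fell, against 5.32% and 5.06% of all genes, with a median of 1.02. With the block 8 rose and 1 fell, where 19.9% and 19.8% of all genes did. The transcription factors E2f8 (4.50 ± 0.62, adjusted p = 0.0107) and E2f7 (3.58 ± 0.60, adjusted p = 0.0162), which repress cell cycle genes, were up together with the activator Mybl2 (4.38 ± 0.53, adjusted p = 0.00815), which encodes B-MYB. Foxm1, picked after its value was seen, rose by 2.52 ± 0.54 (adjusted p = 0.0329). The phosphatases of the CDC25 family, which activate cyclin-dependent kinases, divided. Cdc25c rose by 3.20 ± 0.64 (adjusted p = 0.0264) and Cdc25a by 1.97 ± 0.46 (adjusted p = 0.0396), whereas Cdc25b stood at 48.1 and 39.6 CPM in naive and 10.1 and 17.1 in activated DNT for a log2 fold change of −1.69 ± 0.43 (adjusted p = 0.0496). The call of Cdc25b was lost with DESeq2 size factors, with all deposited barcodes, after thinning, and without naive library 1, naive library 2 or activated library 1. Without naive library 1 the median of these 16 was 0.95, and after thinning 1 of 12 tested rose, against 1.85% of all genes. Of 15 brakes of the cycle, 2 rose and 1 fell, against 5.32% and 5.06% of all genes, with a median of −0.68. With the block 3 rose and 7 fell, where 19.9% and 19.8% of all genes did. Cdkn1a, the CDK inhibitor p21, stood at 4.53 and 6.67 CPM in naive and 541 and 306 in activated DNT (6.23 ± 0.62, adjusted p = 0.00642). Ccng1, a target of p53, rose by 2.39 ± 0.46 (adjusted p = 0.0241), and Gadd45a, a stress-response gene, fell, with a log2 fold change of −2.26 ± 0.45 (adjusted p = 0.0252). Without naive library 1 the median of these 15 was −0.91. After thinning 1 of the 15 rose and 0 fell, where 182 and 80 of all 9858 genes tested did.

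Cells in which many mitosis genes were detected were a minority of the activated libraries. They are defined here by the members and depend on depth, so their shares and levels are descriptions. A UMI of at least 5 of the 37 genes was found in 547 of 1791 cells of activated library 1 (30.5%, exact binomial 95% interval 28.4% to 32.7%) and in 251 of 1549 of activated library 2 (16.2%, 14.4% to 18.1%). In naive DNT such cells were 13 of 4049 (0.321%, 0.171% to 0.548%) and 58 of 6728 (0.862%, 0.655% to 1.11%). The references held 34 of 5035 in CD4 (0.675%), 39 of 4655 in CD8 (0.838%) and 31 of 4294 in TCRab (0.722%). Both activated libraries were above all 5 unstimulated ones. With each cell thinned to 1500 UMIs, which left out 43, 80, 0 and 75 shallower cells of the 4 DNT libraries, the shares were 0.125% and 0.331% in naive, 4.75% and 5.50% in activated DNT and 0.305% to 0.431% in the references. Activated library 1 was above library 2 at full depth and the 2 intervals overlapped after thinning (3.81% to 5.84% and 4.39% to 6.78%). These intervals cover counting error only, and cells of 1 library are not replicates.

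**Figure D3:**
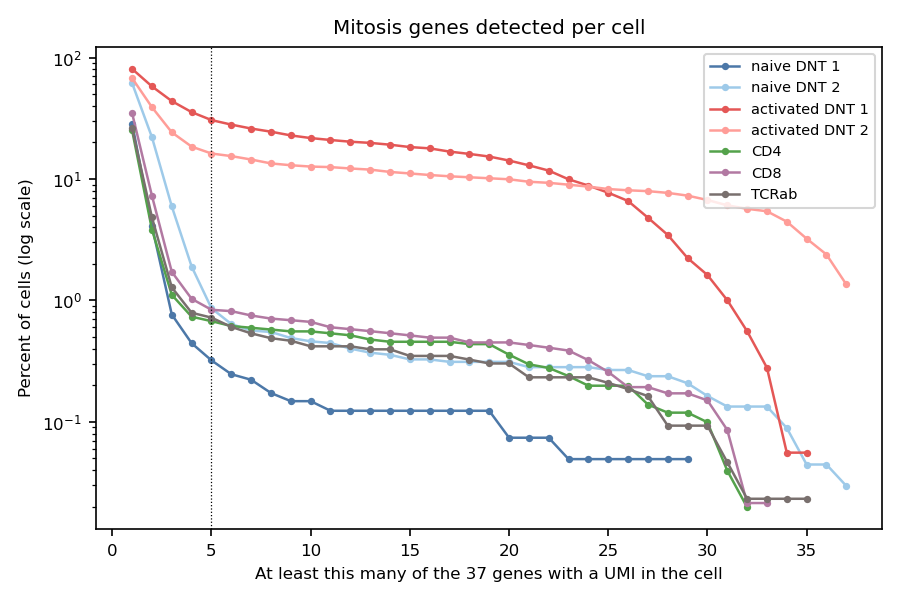
Share of cells (log axis) with a UMI of at least the number of mitosis genes on the horizontal axis, 1 line per library, full depth. The dotted line marks 5 genes, where activated DNT lie at 30.5% and 16.2% and the other libraries between 0.321% and 0.862%.

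Cells with at least 5 of the genes held 93.7% and 95.9% of all mitosis UMIs of the activated libraries, and 26.7% to 64.6% of those of the unstimulated libraries. They also held 50.1% and 47.9% of all UMIs of the activated libraries. Their median was 28017 and 42788 UMIs per cell, against 11395 and 8337 in the remaining activated cells. In the remaining activated cells, from which every cell with 5 or more of the genes had been taken out, the 37 genes took 113 and 119 CPM, between the 83.1 and 151 CPM of such cells in naive DNT, while CD4, CD8 and TCRab had 70.0 to 87.7 CPM. Inside the cells with at least 5 genes the level was 1678 and 3042 CPM in activated DNT, 3741 and 4385 in naive DNT and 4049 to 5495 in the references. The last values rest on 13 to 58 cells per library, chosen by the same genes, and these libraries hold fewer UMIs per cell. At least 1 UMI of Cd3d, Cd3e or Cd3g was in 547 of 547 and 251 of 251 such activated cells and in 12 of 13 and 56 of 58 naive ones. At least 5 UMIs of red cell markers were in 0 and 0 of the activated cells and in 0 and 1 of the naive ones. For myeloid markers these counts were 0 and 0 in activated and 2 and 0 in naive cells. For B cell markers they were 6 and 1 in activated and 1 and 1 in naive cells. At least 5 UMIs of the NK cell list, which includes the cytotoxic genes Gzma and Prf1, were in 9 of 547 and 67 of 251, against 30 of 1791 and 107 of 1549 among all activated cells. In naive DNT they were in 3 of 13 and 9 of 58 such cells, against 54 of 4049 and 280 of 6728 among all naive cells. The threshold of 5 UMIs was not adjusted for depth. Cells with at least 5 members had a higher median of UMIs than all cells in each DNT library. No doublet caller was run, and the part of doublets in these cells of high UMI count was not tested.

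UMIs per cell and mitosis genes went together within each activated library. The share of a cell's UMIs that came from the 37 genes rose with its total UMIs, with Spearman's rho of 0.50 over 1791 cells in library 1 and 0.34 over 1549 cells in library 2. After thinning each cell to 5000 UMIs rho was 0.45 over 1791 cells and 0.33 over 1241 cells, since 308 cells of library 2 had fewer. These are descriptions over cells that share a library. With the cells put in 4 equal groups by UMIs, after the same thinning, at least 5 genes were found in 0.893%, 3.35%, 19.9% and 49.6% of the cells of library 1 from the smallest to the largest. In library 2 the shares were 0.965%, 0.968%, 5.81% and 44.8%. The top group began at 24695 UMIs in library 1 and 22928 in library 2, and its cells had a mean of 5.11 and 6.03 of the 37 genes after thinning, against 0.652 and 0.714 in the bottom group. UMIs of the replication list took 7.65 and 9.92 per 10000 in the bottom group and 25.9 and 40.8 in the top one.

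**Figure D4:**
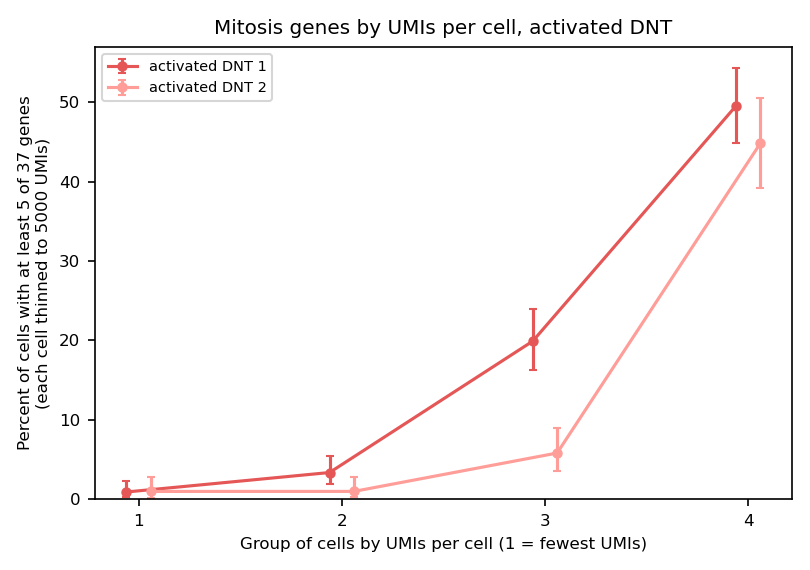
Share of activated DNT cells with a UMI of at least 5 of the 37 genes, in 4 equal groups of cells ranked on UMIs per cell, each cell thinned to 5000 UMIs. Bars are exact binomial 95% intervals. Both libraries reach 44.8% or more in the top group from 0.893% and 0.965% in the bottom one.

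Single genes followed the same order. Top2a was detected in 2.46% and 3.54% of thinned cells in the bottom group and in 41.3% and 43.5% in the top group. Birc5 went from 4.69% and 2.89% to 42.2% and 34.5%. Cenpa had a flatter course, from 13.2% and 19.0% to 32.1% and 33.2%, and Racgap1 went from 3.57% and 8.04% to 11.2% and 15.8%.

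Across activated cells the 37 genes were positively correlated with each other at full depth. All 666 pairs had a positive Pearson r of log2(UMIs per 10000 + 1) in both libraries, with a median r of 0.357 in library 1 and 0.497 in library 2, or 0.117 and 0.219 after thinning. The pairs shared much of their order, with an r of 0.72 between the libraries over pairs, which are not independent. Ranked by the smaller r of the 2 libraries, Top2a and Mki67 came first (r = 0.741 and 0.775), followed by Top2a and Cdca3 (0.738 and 0.740) and Top2a and Birc5 (0.765 and 0.737). With the sum of the other members, Ect2 (0.312 and 0.339) and Anln (0.240 and 0.461) had low values and Top2a (0.786 and 0.735) high ones. Cells share depth and library in these values, so they are given with no test. At full depth each member's share of UMIs rose with UMIs per cell, with Spearman's rho from 0.19 and 0.36 for Anln to 0.56 and 0.52 for Top2a. Positive pairs were not counted among other genes or after thinning.

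Of 8599 genes detected in at least 5% of cells of both activated libraries, those outside all lists that followed the summed members most closely were few in kind. The first was 2810417H13Rik, which encodes the PCNA-associated factor (r = 0.842 and 0.766). Next came Hist1h2ap, a replication-dependent histone H2A (0.669 and 0.712), and Stmn1, stathmin, which destabilises microtubules (0.737 and 0.634). Asf1b, Lrr1, Esco2, Cit and Hmgb2 were also among the first 10, with a smaller r of 0.582 down to 0.519. Asf1b carries histones to new DNA, Esco2 acetylates cohesin during replication and Cit encodes the citron kinase of cytokinesis.

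Among activated cells with at least 5 members, the members differed in level between cells low and high in replication genes. The activated cells with at least 5 members were divided at the median level of the replication list, giving 274 and 273 cells in library 1 and 126 and 125 in library 2, a division chosen after results were seen. Ube2c was higher in the cells low in replication genes, at 228 against 158 CPM in library 1 and 308 against 144 in library 2. Cenpa (152 against 89.5, and 176 against 128 CPM) and Cdc20 (60.3 against 47.9, and 82.6 against 49.6 CPM) did the same. Ccnb1, Aurka and Cenpf were also above 1 in both libraries, with ratios of 1.13 and 1.63, 1.12 and 1.53, and 1.14 and 1.01. The opposite held in both libraries for 28 of 37 genes, with Aurkb at 23.5 against 51.3 and 56.3 against 95.6 CPM and Ccna2 at 40.9 against 82.2 and 93.5 against 158 CPM. The 37 genes together were also lower in the cells low in replication genes, at 1505 against 1922 CPM and 2710 against 3414. No such count was made over all genes. Over the 37 genes the ratios of the 2 libraries had a Spearman's rho of 0.81. The median UMIs of the low and high cells were 33186 and 24674 in library 1 and 40641 and 45068 in library 2, so depth differed in opposite directions.

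Many mitosis genes, and not only those that missed the threshold, were also detected in cells where few others were. Among cells with a UMI of fewer than 3 other mitosis genes, Top2a was found in 2.56% and 5.55% of naive, 9.01% and 7.92% of activated and 0.990% to 1.31% of reference cells. In activated libraries 1 and 2, Cdc20 (11.3% and 4.71%), Birc5 (10.6% and 3.46%) and Ube2c (8.67% and 2.04%) were also found. In the naive libraries their shares were 1.27% and 2.45%, 0.473% and 0.568%, and 0.398% and 0.505%. Ccna2 was found in 0 of 4018 and 3 of 6328 naive cells, and the first count allows a share of cells with a UMI of up to 0.0747% (3 cells), which does not limit the share that expresses the gene. Racgap1 was found in 9.39% and 17.3% of such naive cells, in 6.05% and 9.68% of such activated cells, and in 1.22% in CD4, 13.1% in CD8 and 5.22% in TCRab. These cells held 96.5% and 88.5% of all Racgap1 UMIs of the naive libraries and 11.4% and 12.3% of those of the activated libraries. In naive DNT the same cells held 94.5% and 90.0% of the Cenpa UMIs, 85.9% and 74.9% of Kif23, 76.7% and 71.4% of Ndc80, 82.6% and 75.6% of Aurka and 71.9% and 70.8% of Dlgap5. Cenpa was in 11.3% and 34.2% of such naive cells, 24.8% and 25.9% of such activated cells and 7.49% to 9.50% in the references. Kif23 was in 1.37% and 4.48%, 1.19% and 1.27%, and 2.21%, 7.37% and 4.29% in the same order of libraries. Free RNA in the droplets can give UMIs in cells that do not express a gene. The part of free RNA in these shares was not tested. Between CD8 and CD4 (median 4899 and 4087 UMIs per cell) Racgap1 was higher in CD8 (13.1% against 1.22%) while Cenpa was lower (7.49% against 9.50%).

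**Figure D5:**
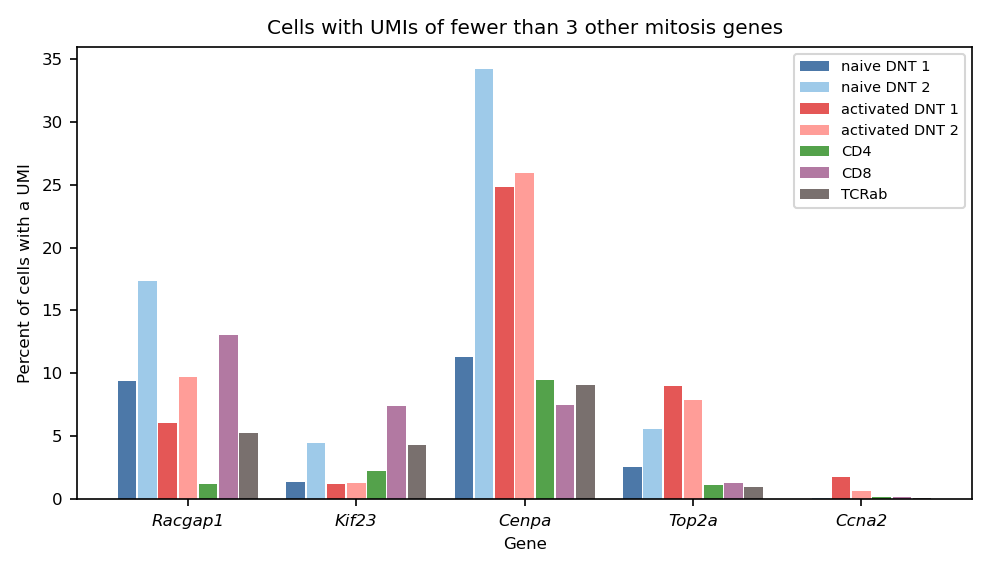
Percent of cells with a UMI of Racgap1, Kif23, Cenpa, Top2a and Ccna2 among cells with a UMI of fewer than 3 other mitosis genes, 1 bar per library. Racgap1 is at 13.1% in CD8 and 1.22% in CD4, and Ccna2 is at most 1.78% in any library.

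Within the cells with at least 5 members both centralspindlin genes and Cenpa were present as well. In cells with at least 5 members Racgap1 was at 93.9 and 121 CPM in naive and 28.2 and 71.2 in activated DNT, and Cenpa was at 202 and 278 CPM in naive and 126 and 153 in activated DNT. In cells with few other members Racgap1 stood at 24.1 and 27.0 CPM in naive and 5.18 and 11.1 in activated DNT. Kif23 was at 65.0 and 88.2 CPM in naive and 10.2 and 34.3 in activated cells with at least 5 members. In cells with few other members it stood at 3.23 and 6.62 CPM in naive and 0.973 and 1.48 in activated DNT. For Racgap1 and Kif23 both naive libraries were thus above both activated ones in either class of cell. The sums of each gene over all cells overlapped. In cells with at least 5 members this order was not particular to these genes. There the members together were at 3741 and 4385 CPM in naive and 1678 and 3042 in activated DNT. The naive values in cells with at least 5 members rest on 13 and 125 UMIs of Racgap1 and 9 and 91 of Kif23. The classes were set by the members and depend on UMIs per cell, so these are descriptions. For Racgap1 the class with few other members held 4026 of 4049 and 6494 of 6728 naive cells. In activated DNT it held 1025 of 1791 and 1188 of 1549 cells. How many of all genes had the same order in these classes was not counted.

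The promoters of the centralspindlin genes are printed around the start, from 30 bases before to 50 after, since neither gene passed the test after stimulation. They were chosen after their values were seen.
Racgap1, chr15:99651607-99651686 (- strand): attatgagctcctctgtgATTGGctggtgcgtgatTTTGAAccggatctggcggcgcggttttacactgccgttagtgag
Kif23, chr9:61946750-61946829 (- strand): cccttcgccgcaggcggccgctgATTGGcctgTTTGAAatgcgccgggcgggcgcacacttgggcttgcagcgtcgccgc

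Both hold TTTGAA just after the start, at base 6 in Racgap1 and base 3 in Kif23, and a CCAAT box before it, at 12 and 7 bases. The same 2 motifs were in 25 of the 32 promoters. On GRCm38 (GENCODE vM21) Racgap1 is a protein-coding gene at chr15:99620496-99651656 on the minus strand and Kif23 one at chr9:61915905-61946774 on the minus strand.

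Unstimulated DNT were set against the other T cells with no test, as each reference is 1 library. Unscaled CPM of the 37 genes summed to 112 and 233 in naive DNT and to 193 in CD4, 193 in CD8 and 186 in TCRab, so the naive libraries lay on either side of the references. Naive library 2 was made with kit v3 and the references with kit v2. Against CD4, both naive libraries were lower for 18 of 37 genes, where 16.6% of all genes with at least 10 UMIs over the 3 libraries were, and higher for 3, where 52.1% were. Both were below CD8 for 17 genes (10.3% of all genes) and above it for 1 (60.5%). Both were below TCRab for 17 genes (19.0%) and above it for 3 (47.9%). Ccna2 was at 1.68 and 2.21 CPM in naive DNT and at 4.66, 4.66 and 5.26 in CD4, CD8 and TCRab. Birc5 was at 4.40 and 7.44 CPM against 15.8, 14.3 and 14.3, and Cdca3 at 2.72 and 2.85 against 8.998, 5.996 and 6.51. For these genes the naive libraries were the lowest of all 7. Their UMIs came largely from the few cells with at least 5 members. For Ccna2 these cells held 28 of 29 UMIs in naive library 1 (13 cells) and 94 of 101 in CD4 (34 cells). The members are therefore not independent of each other in these counts. How far the counts follow the number of such cells in each library was not tested.

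Racgap1 went the other way. It stood at 24.7 and 28.8 CPM in naive DNT, 5.95 in CD4, 30.7 in CD8 and 16.04 in TCRab. CD8 and the naive libraries were high, CD4 was low and TCRab lay between. The ratio to CD4 was 4.15 (counting interval 3.40 to 5.09) and 4.83 (4.04 to 5.83), and Racgap1 was the 1 member at least 2-fold above CD4 with at least 20 CPM in both naive libraries, a size that 1.65% of all genes reached. By the same rule of size 0 members were below CD4 (0.4% of all genes), 0 above or below CD8 (1.43% and 0.156%) and 0 above or below TCRab (1.26% and 0.357%). Against CD8 the ratios were 0.805 (0.712 to 0.908) and 0.938 (0.858 to 1.03), and CD8 over CD4 was 5.16 (4.27 to 6.26). Kif23 was at 3.71 and 8.15 CPM in naive DNT, 5.95 in CD4, 15.6 in CD8 and 11.2 in TCRab, and CD8 over CD4 was 2.62 (2.14 to 3.23). For Cenpa the levels were 30.7 and 75.5 CPM in naive DNT and 36.4, 22.7 and 33.0 in CD4, CD8 and TCRab. The kit v3 library was high, and the order of the rest does not parallel that of Racgap1.

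The TCRab library holds both kinds of T cell in 1 preparation, and a division of its cells was added after these values were seen. Of its cells, 1849 had a UMI of Cd8a or Cd8b1 and none of Cd4 (median 4291 UMIs per cell), and 710 had a UMI of Cd4 and none of Cd8a or Cd8b1 (median 3871). Racgap1 was found in 9.46% of the first (8.17% to 10.9%) and 2.11% of the second (1.19% to 3.46%), and its CPM ratio was 2.45 (1.64 to 3.78). Kif23 was in 5.41% and 2.82% of the cells, with a ratio of 1.73 (1.08 to 2.91). The counting interval lay above 1 for these 2 of the 37 genes and below 1 for 17. Of the 27 members with at least 10 UMIs in these cells it lay above 1 for 2 and below 1 for 16, and of all 10023 such genes for 4.91% and 11.9%. The values below 1 rest on few cells, such as the 47 UMIs of Ccnb2 in 1.13% of the 710 cells with Cd4.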

How the data were processed

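The 7 matrices deposited by the authors hold untransformed UMI counts for each gene in each barcode, made with Cell Ranger 2.1.0 and 3.0.1 on mm10 (GRCm38), per the submitters' processing notes. Software 3.0.2 is named in the headers of the kit v3 files. Cells needed 200 or more detected genes and no more than 10% of UMIs from mitochondrial genes, and the 27514 gene IDs shared by both references (27998 and 31053 genes) were used. Each library held 17358231 to 53653855 UMIs in kept cells. CPM is per 1000000 UMIs of shared genes.

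UMIs summed per library were tested with edgeR 4.0.16 (filterByExpr, TMM, robust quasi-likelihood test, Benjamini-Hochberg at 0.05; 2 residual degrees of freedom) in R 4.3.3 on the 4 DNT libraries, and the script was tested on simulated data. Alternatives were DESeq2 1.42.0 and its size factors, no filter, all barcodes, cells with a Cd3 UMI, thinning, a replicate block and each library left out. Same-numbered DNT libraries share a kit, per the labels, and their deviations from the group means correlated with r = 0.648 over genes (2 pairs), so the block is taken as a pairing. Its value is given where it changes a call or a count. Reference groups have 1 library each and no test. Poisson, binomial and conditional intervals are exact at 95%. Other steps used SciPy 1.17.1, pandas 2.3.3, NumPy 2.4.6 and matplotlib 3.10.9 in Python 3.11.15.

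The 37 genes and all lists (other mitosis, replication and G1/S, mitotic entry regulators, brakes, and T, B, myeloid, red and NK cell markers) were chosen with earlier results of these data known. All symbols matched except 1 of 7 red cell markers. From each list of cell cycle genes the 4 largest changes past the threshold are named, and outside the lists those among the 10 genes closest to the summed members, of which some are not reported here.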

Additional observations from a re-analysis of the deposited data

How the results depend on the processing

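The count of 32 genes higher in activated DNT was 32 with DESeq2 size factors, all deposited barcodes or only cells with a Cd3 UMI, and 34 with the DESeq2 Wald test, no filter on low counts or the replicate block, each of which added Ndc80 and Ect2. It was 16 with cells thinned to 1500 UMIs, where 13 genes lost the call and 4 of the 37 were not tested, and 24 to 34 with 1 library left out, the lowest without naive DNT replicate 1. A group left with 1 library is assumed to vary like the other. Racgap1, not called in the comparison, had log2 fold changes from −0.57 to 0.21 with 1 library left out, positive without naive DNT replicate 1 (0.05) or activated DNT replicate 1 (0.21). The cause was not tested. All genes called, 1280 in the comparison, came to 2348 with the DESeq2 Wald test, 2188 without the filter, 4894 with the replicate block, 262 with thinned cells (fewer genes tested), and 547 to 2074 with 1 library left out (547 without naive DNT replicate 1, 773 without naive DNT replicate 2, 2074 without activated DNT replicate 2). The replicate block changed no other call among the 37 genes.

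The share of cells with at least 5 of the genes moved with the setting in every library. Thinned to 1500 UMIs it was 0.125% and 0.331% in naive DNT, 4.75% and 5.50% in activated DNT, 0.380% in CD4, 0.431% in CD8 and 0.305% in TCRab. With at least 3 genes it was 0.766% and 5.95%, 43.8% and 24.2%, 1.11%, 1.72% and 1.28% in the same order. With all deposited barcodes it moved by less than its counting interval in all 7. Rank correlations with UMIs per cell kept their sign under thinning and as Pearson's r (0.54 and 0.43). Genes at a few UMIs in naive DNT, such as Bub1, Kif4 and Anln, are limited by depth.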
